A study of Mus musculus with 6 samples.

Results

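Carbonic anhydrase genes were described in whole hearts of E13.5 mouse embryos (C57BL/6 x DBA/2 background), with 1 heart per library. The set held 9 genes of the 46983 listed: Car2, Car3, Car4, Car8, Car9, Car11, Car12, Car13 and Car14, taken by gene name. They were proposed with the mutant and control values of these hearts already known, so the difference between the groups is given for them as a description, without a test. The mutant hearts (numbers 1, 5 and 10) were labelled TnnT2Cre;Wt1flox. The hearts are called control hearts 2, 3 and 5 and mutant hearts 1, 5 and 10 after these numbers. The mutant hearts carried Cre under the promoter of cardiac troponin T (Tnnt2) and 2 floxed alleles of Wt1, which encodes the Wilms' tumor transcription factor. The control hearts (numbers 2, 3 and 5) were labelled wild type, although the study's methods give them both floxed Wt1 alleles too, without Cre. This driver recombines in the myocardium and, according to the study, in a part of the epicardium. Every cell type of the heart contributed RNA.

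Carbonic anhydrases catalyze the reversible hydration of carbon dioxide to bicarbonate and a proton. The active enzymes hold a zinc ion bound by histidine residues, and the family divides by where the enzyme works. Car2, Car3 and Car13 act in the cytosol. Car4 is tethered to the outer face of the plasma membrane by a glycosylphosphatidylinositol anchor, and Car9, Car12 and Car14 are transmembrane proteins with the enzyme domain outside the cell. Car8 and Car11 are related proteins that lack zinc-binding histidines and do not hydrate carbon dioxide. In the heart, these enzymes buffer pH, speed the release of carbon dioxide into the blood and work beside bicarbonate, proton and lactate transporters of the myocyte membrane.

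RefSeq promoter sequences (GRCm38.p6) were found for 5 of the 9 genes. The 250 bases before the transcription start of Car4 are shown because Car4 had the largest difference between the groups and because the deleted gene encodes a DNA-binding factor. Capitals mark a match to GNGTGGGNG, letters searched on both strands for a WT1 element, and it begins 127 bases before the start. These letters occur in 12.7% of the 32851 promoter windows of this length. The related letters GNGGGGGNG, held by 17.0% of windows, were searched too, with 0 matches in Car4, Car9, Car12 and Car14 and 1 in each of the 2 windows of Car11. Car9 and Car14 are shown with the core of the hypoxia response element (ACGTG, both strands, 16.6% of windows) in capitals. It begins 18 and 7 bases before their starts, and the windows of Car4, Car11 and Car12 held 0 matches to it. A match of letters is a description and not a measured binding site, and the motifs were chosen after the values were seen.
Car4 promoter, chr11:84957504-84957753, plus strand: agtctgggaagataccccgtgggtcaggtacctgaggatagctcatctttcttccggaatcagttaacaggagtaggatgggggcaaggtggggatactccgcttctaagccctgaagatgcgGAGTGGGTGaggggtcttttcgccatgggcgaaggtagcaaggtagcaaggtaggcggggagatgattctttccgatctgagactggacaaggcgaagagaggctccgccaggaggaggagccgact
Car9 promoter, chr4:43506776-43507025, plus strand: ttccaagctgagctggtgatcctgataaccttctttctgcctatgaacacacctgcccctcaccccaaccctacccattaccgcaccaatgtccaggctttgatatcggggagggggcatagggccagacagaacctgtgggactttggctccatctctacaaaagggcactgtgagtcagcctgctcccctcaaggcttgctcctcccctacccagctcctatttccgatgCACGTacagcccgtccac
Car14 promoter, chr3:95904686-95904935, minus strand: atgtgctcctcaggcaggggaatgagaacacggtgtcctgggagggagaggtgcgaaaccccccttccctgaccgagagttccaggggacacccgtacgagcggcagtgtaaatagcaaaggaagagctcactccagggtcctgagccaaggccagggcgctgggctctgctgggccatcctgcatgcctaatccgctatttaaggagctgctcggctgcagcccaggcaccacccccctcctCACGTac

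Total counts lay between 44244665 and 56373393 per heart. The transcript of Tnnt2 was at 3130 to 3363 FPKM (fragments per kilobase of transcript, scaled to the depth of the library) in all 6 hearts, as in myocardium. The count of Wt1 over the whole gene was 2251, 1891 and 879 in control hearts 2, 3 and 5 and 921, 1746 and 1796 in mutant hearts 1, 5 and 10, and it does not separate recombined from intact alleles. A pair of control hearts stood apart. In control heart 5, the deviation of a gene from its mean followed gene length (Spearman's rho -0.556 across 11795 genes, against -0.0622 to 0.464 in the other hearts). Control heart 3 held hepatocyte transcripts, with 823 CPM (counts scaled to the depth of the library) summed over the hepatocyte markers against 3.72 to 24.8 CPM in the other 5 hearts, and genes of skeletal muscle precursors. Where leaving out one of these hearts moved a carbonic anhydrase strongly, the value without it is given.

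In the control hearts, Car2 was the most abundant carbonic anhydrase transcript, at 63.3 ± 13.2 FPKM (SD, n = 3). Car14 followed at 18.9 ± 1.86 FPKM and Car3 at 13.97 ± 5.81 FPKM, with overlapping ranges. Car9 (5.47 ± 0.859 FPKM), Car4 (5.18 ± 2.33 FPKM), Car8 (3.101 ± 0.830 FPKM), Car13 (2.71 ± 0.331 FPKM) and Car11 (2.53 ± 0.794 FPKM) formed a middle group in which each gene overlapped the next in the order. Car12 was the lowest of the 9 at 0.524 ± 0.219 FPKM, with no overlap with Car11. In the mutant hearts the order was the same except that Car4 stood in position 8 in place of 5. FPKM compares genes through the length that the authors assigned to each. This length was within 1 base of the mean of the GENCODE M21 transcript lengths for 76.0% of 26680 genes. Of the 9, Car11 and Car12 were exceptions, with assigned lengths of 1538 and 2066 bases against means of 800 and 2265.7 bases. A shorter length gives a higher FPKM, so the place of Car11 in the order depends on its assigned length. With the longest transcript in place of the assigned length, Car9 moved from position 4 to 8, whereas Car4 kept position 5. Car2, Car14 and Car3 led the order under both lengths.

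Car4 (ENSMUSG00000000805, chromosome 11 from 84957786 to 84966044, GRCm38) is known from capillary endothelium of lung and muscle, where it faces the blood. It had 253, 242 and 75 counts in control hearts 2, 3 and 5 and 38, 34 and 32 counts in mutant hearts 1, 5 and 10. On the length-corrected scale these were 6.71, 6.32 and 2.50 FPKM in the control hearts and 1.10, 0.959 and 0.887 FPKM in the mutant hearts. The groups did not overlap, and the lowest control value was 2.28 times the highest mutant value. The mutant hearts were close to each other (SD 0.106 FPKM, n = 3), while control heart 5 lay well below the other control hearts. The fitted difference was a 5.16-fold lower level in the mutant, or -2.37 ± 0.39 on the log2 scale (± standard error here and below). Without control heart 5 it was -2.69 (standard error 0.24), and without control heart 3 it was -2.20. In bulk RNA, fewer cells of a type and less RNA per cell cannot be told apart. Exons of no annotated gene overlap those of Car4.

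**Figure D1:**
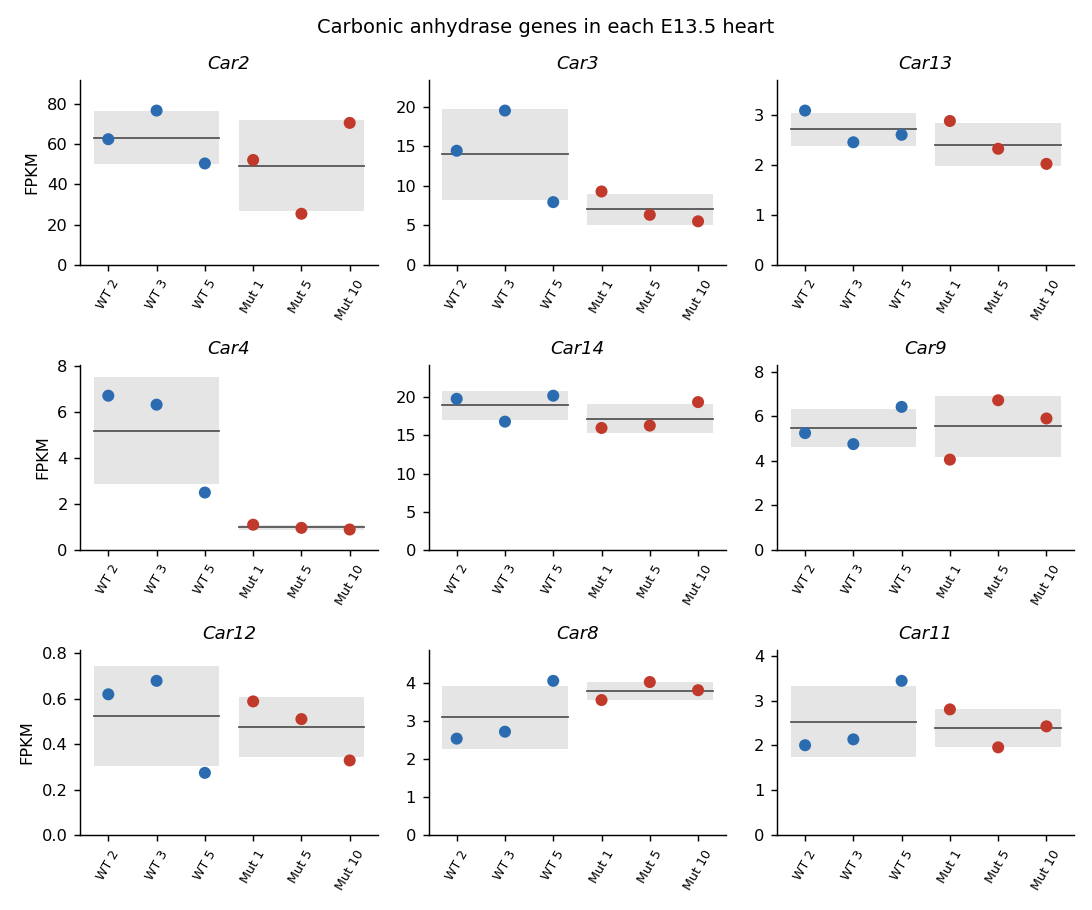
Level of each carbonic anhydrase gene in FPKM (vertical axes from 0) in each heart, wild type in blue and mutant in red, with the group mean (line) and SD (grey band, n = 3). The 3 mutant hearts lie below all wild type hearts in Car4, and the groups overlap in the other 8 genes.

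Among the 9 genes, the groups did not overlap in Car4 alone, where 10.7% of the 17473 genes tested did not overlap in either direction and 5.75% lay lower in all mutant hearts. With the edgeR quasi-likelihood fit, 0 of the 9 had an adjusted p under 0.05 (0% of all genes tested), and 2, Car4 and Car3, had an unadjusted p under 0.05 (5.73% of all genes). DESeq2, the tool the study used, called 1 of the 9, Car4 (0.66% of 20013 genes). Since these genes were proposed with this comparison known, nothing is read from the counts. Their median log2 fold change was -0.12, with 2 higher and 7 lower in the mutant, beside a median of -0.0010 over all genes tested.

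**Figure D2:**
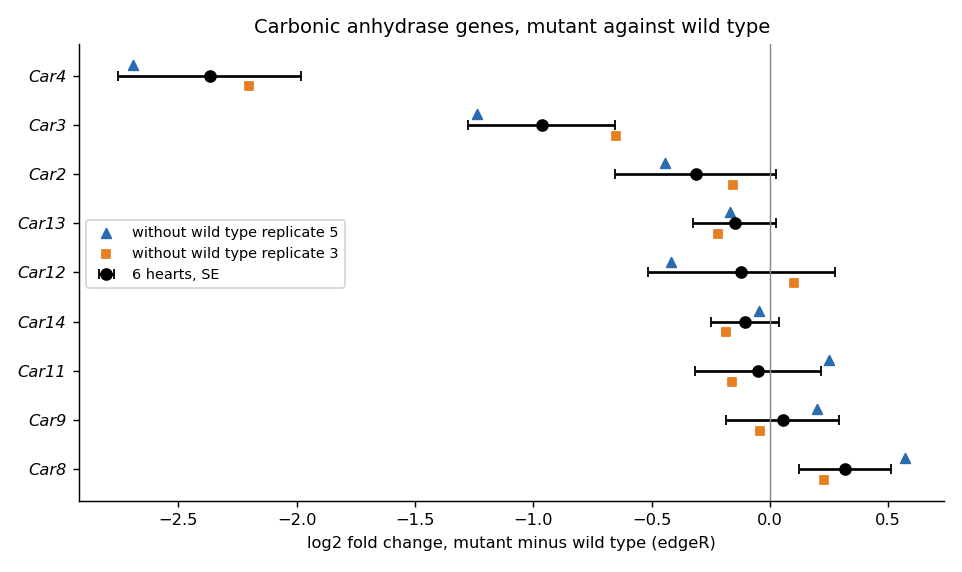
Log2 fold change of each carbonic anhydrase gene (horizontal axis, mutant minus wild type) with its standard error over 6 hearts (black), without control heart 5 (triangles) and without control heart 3 (squares). Car4 lies near -2.37 and Car3 near -0.96 with 6 hearts, and the other 7 genes lie between -0.31 and 0.32.

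The other enzymes of the cell surface showed no separation of the groups. Car14 (ENSMUSG00000038526, chromosome 3 from 95897768 to 95904691) is a transmembrane enzyme of the cardiac myocyte surface. As the ratio of the highest to the lowest value, it had the narrowest range of the 9 over the 6 hearts. It had 19.8, 16.8 and 20.2 FPKM in control hearts 2, 3 and 5 and 16.0, 16.3 and 19.4 FPKM in mutant hearts 1, 5 and 10. Its fitted log2 difference was -0.10 ± 0.14 (SE). Exons of Aph1a on the opposite strand cover 17.5% of the exon bases of Car14, and the strand setting of the counting was not given in the sources used here.

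Car9, an enzyme that tissues with little oxygen induce through hypoxia-inducible factor (ENSMUSG00000028463, chromosome 4 from 43506966 to 43513729), had 5.25, 4.75 and 6.42 FPKM in the control hearts in the same order. The mutant hearts had 4.05, 6.72 and 5.90 FPKM, so that the lowest and the highest of the 6 values were both mutant. Its fitted log2 difference was 0.06 ± 0.24 (SE), and its sign depended on single hearts (-0.10 without mutant heart 5 and 0.25 without mutant heart 1). Gm12454, on the other strand, overlaps 9.29% of its exon bases. Car12, the other transmembrane enzyme of this kind (ENSMUSG00000032373, chromosome 9 from 66713686 to 66766845), had 71, 79 and 25 counts in the control hearts and 62, 55 and 36 in the mutant hearts. At 0.273 to 0.678 FPKM it was near the bottom of the range measured, with a log2 difference of -0.12 ± 0.40 (SE) that was 0.10 without control heart 3 and -0.42 without control heart 5.

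Summed over the 4 enzymes of the cell surface, the level was 32.4, 28.6 and 29.4 FPKM in the control hearts and 21.7, 24.5 and 26.5 FPKM in the mutant hearts, without overlap. Without Car4 the sums were 25.7, 22.2 and 26.9 FPKM and 20.6, 23.5 and 25.6 FPKM, and the groups overlapped. Car4 made up 20.7%, 22.1% and 8.49% of the surface sum in control hearts 2, 3 and 5 and 5.05%, 3.92% and 3.35% in mutant hearts 1, 5 and 10. Car14 was the main surface transcript in every heart, at 58.9% to 73.6% of the sum.

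Of the cytosolic enzymes, Car3 had the largest difference. Car3 (ENSMUSG00000027559, chromosome 3 from 14863512 to 14872523) hydrates carbon dioxide slowly and is best known from skeletal muscle, liver and fat. It had 14.4, 19.5 and 7.94 FPKM in control hearts 2, 3 and 5 and 9.29, 6.33 and 5.50 FPKM in mutant hearts 1, 5 and 10. The groups overlapped, because control heart 5 lay below mutant heart 1. The fitted level was 1.95-fold lower in the mutant, a log2 difference of -0.96 ± 0.31 (SE). Without control heart 5 it was -1.24 and without control heart 3 it was -0.65, so these control hearts moved it in opposite directions.

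Genes of skeletal muscle and hepatocytes were measured beside Car3, which was highest in control heart 3. Myog, a regulator of skeletal muscle differentiation, was at 20.3 CPM there and at 0.815 to 2.65 CPM in the other hearts. The embryonic myosin Myh3, named with its values known, was at 27.4 CPM against 1.26 to 2.73 CPM. Control heart 2, second in Car3 at 14.4 FPKM, had Myog at 2.65 CPM. Albumin (Alb) was at 303 CPM in control heart 3 and at 6.57 CPM or less elsewhere. Over the whole skeletal muscle list, 10 of 11 genes tested were lower in the mutant. The summed level was 321, 382 and 235 CPM in control hearts 2, 3 and 5. It was 276, 230 and 304 CPM in mutant hearts 1, 5 and 10, and Tnnc2 had 0 counts in every heart. A count of 0 allows up to 3 counts. The part of this tissue in the Car3 level was not tested.

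**Figure D3:**
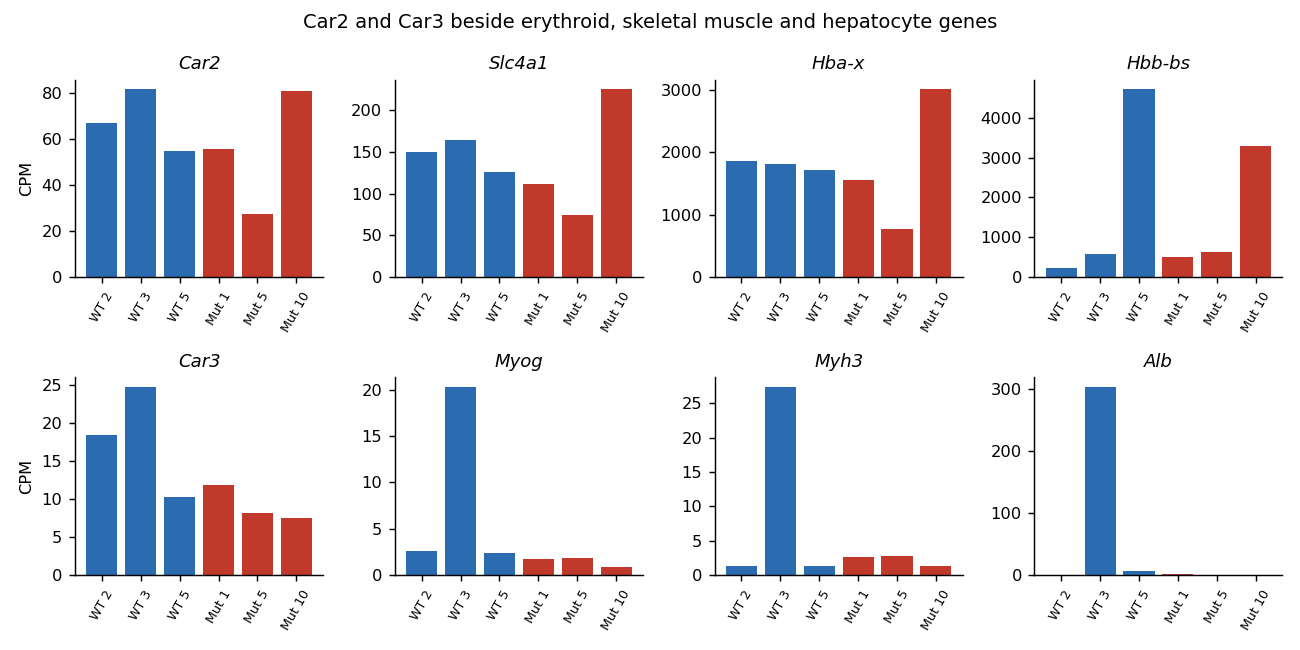
CPM (vertical axes from 0) of Car2 beside the erythroid genes Slc4a1, Hba-x and Hbb-bs, and of Car3 beside Myog, Myh3 and Alb, in each heart (wild type blue, mutant red). Car2 and Slc4a1 are both lowest in mutant heart 5, and Myog, Myh3 and Alb stand out in control heart 3.

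Car2, a fast enzyme that is abundant in red blood cells (ENSMUSG00000027562, chromosome 3 from 14886273 to 14900770), had 62.6, 76.8 and 50.5 FPKM in control hearts 2, 3 and 5. In mutant hearts 1, 5 and 10 it had 52.2, 25.4 and 70.7 FPKM. Its spread within the mutant group was 2.78-fold, wider than the 1.24-fold difference between the groups, and the fitted log2 difference was -0.31 ± 0.34 (SE). Single hearts decided that value, which was -0.0012 without mutant heart 5 and -0.71 without mutant heart 10.

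The erythroid genes were measured beside Car2. Slc4a1, the anion exchanger of the red cell membrane, had 150, 164 and 126 CPM in the control hearts and 112, 74.7 and 225 CPM in the mutant hearts, and was lowest in mutant heart 5 like Car2. This gene was chosen from the erythroid list after its values were seen. The ratio of Car2 to Slc4a1, both in CPM, stayed between 0.360 and 0.498 over the 6 hearts, while Car2 itself varied from 27.5 to 81.7 CPM. The adult-type globin Hbb-bs behaved differently, with 4714 CPM in control heart 5 and 3293 CPM in mutant heart 10 against 244 to 641 CPM in the other hearts. Hba-x, an embryonic globin, ranged from 778 CPM in mutant heart 5 to 3009 CPM in mutant heart 10. Rhag, named with its values known, and Klf1 were also lowest in mutant heart 5, at 2.27 and 1.72 CPM. Unlike Car2, they were lower in mutant heart 10 (4.11 and 3.48 CPM) than in control heart 2 (7.08 and 4.65 CPM). Car2 was at 80.9 CPM in mutant heart 10 and at 66.9 CPM in control heart 2. Of the 17 erythroid genes tested, 4 were higher and 13 lower in the mutant (median -0.22), and their sum lay between 15340 and 39455 CPM in control and between 12653 and 42873 CPM in mutant hearts. Among the control hearts, this sum was highest in control heart 5 (39455 CPM), where Car2 was lowest. Among the mutant hearts, the sum and Car2 were both lowest in heart 5 and highest in heart 10. No erythroid gene of the list was at 0. The part of blood in the Car2 level was not tested.

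Car13, a widespread cytosolic enzyme (ENSMUSG00000027555, chromosome 3 from 14641727 to 14663002), had 3.08, 2.45 and 2.60 FPKM in the control hearts and 2.87, 2.32 and 2.01 FPKM in the mutant hearts. Its fitted log2 difference was -0.15 ± 0.18 (SE). Car13, Car1, Car3 and Car2 lie in this order within 259 kb of chromosome 3, with no other protein-coding gene between them. Their fitted differences ran from -0.96 in Car3 to -0.15 in Car13, and Car1, another red cell enzyme, had only 1 to 12 counts per heart.

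The proteins without catalysis were Car8 and Car11. Car8, which binds the inositol trisphosphate receptor (ENSMUSG00000041261, chromosome 4 from 8143362 to 8239041), had 2.53, 2.72 and 4.05 FPKM in control hearts 2, 3 and 5 and 3.55, 4.02 and 3.81 FPKM in mutant hearts 1, 5 and 10. All mutant hearts lay above control hearts 2 and 3, and control heart 5 lay above them all. The fitted log2 difference was 0.32 ± 0.19 (SE), or 0.57 without control heart 5 and 0.20 with the length trend of each heart removed. Car8 has the longest transcript of the 9 genes by the length used, 3853 bases. Car11 (ENSMUSG00000003273, chromosome 7 from 45699843 to 45704682) had 2.00, 2.13 and 3.44 FPKM in the control hearts and 2.80, 1.96 and 2.42 FPKM in the mutant hearts, with a log2 difference of -0.05 ± 0.27 (SE) that was 0.25 without control heart 5. Control heart 5 was the lowest control heart for Car2, Car3, Car4 and Car12, and the highest for Car8, Car9, Car11 and Car14.

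The genes whose pattern over the 6 hearts was most like that of Car4 were sought among the 17472 other genes tested. Likeness was the root-mean-square difference between log2 CPM profiles, each centred on its own mean. The nearest were Kcne1l (0.31), an accessory potassium channel subunit, Tmprss6 (0.35), a membrane serine protease, Adcyap1r1 (0.39), the receptor of the peptide PACAP, and Calb2 (0.40), which encodes calretinin. Kirrel2 (0.40), Tmem132d (0.40), Ntng2 (0.41) and Ubap1l (0.42) followed, beside a median of 1.20 over all genes. In each of these 8 genes control heart 5 was the lowest control heart and lay above all mutant hearts, as in Car4. This follows largely from picking them for likeness to Car4. Kcne1l, for example, had 1184, 976 and 543 counts in control hearts 2, 3 and 5 and 224, 227 and 244 counts in mutant hearts 1, 5 and 10. Tmprss6, Tmem132d and Ubap1l rest on 39 counts or fewer per heart. Car3 was the nearest family member (0.68, position 53), and Car8 the farthest (1.44, position 16097). These likenesses were found with the group difference included, and they are a description of 6 hearts.

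**Figure D4:**
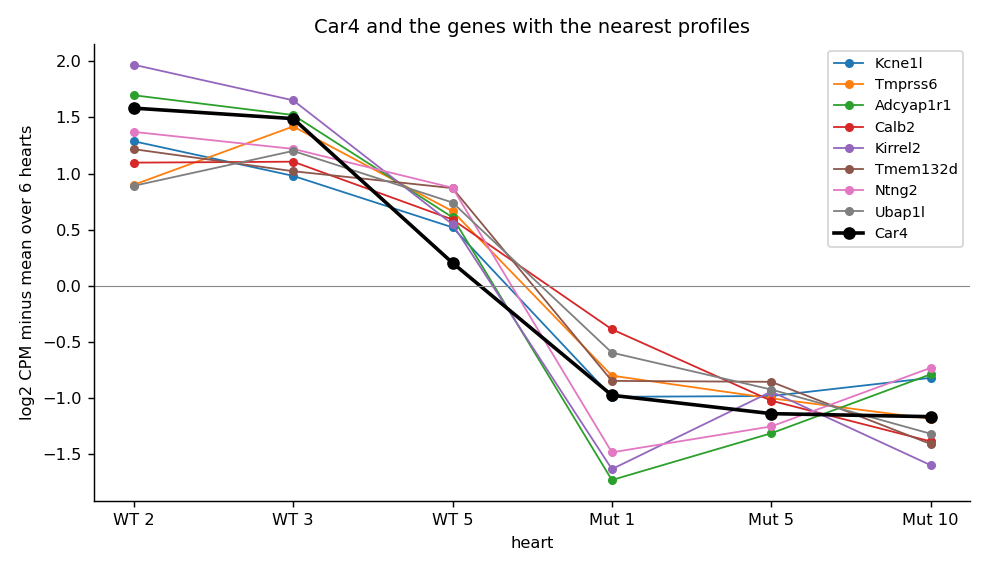
Log2 CPM of Car4 (black) and of the 8 genes with the nearest profiles, each minus its mean over the 6 hearts (vertical axis), by heart. Car4 goes from 1.58 and 1.49 in control hearts 2 and 3 to 0.20 in control heart 5 and to between -0.97 and -1.17 in the mutant hearts.

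The genes next to Car4 on chromosome 11 had smaller fitted differences. The 3 nearest tested genes on each side were Znhit3, Myo19 and Pigw before it and Usp32, Appbp2 and Ppm1d after it. Usp32 lies 18.4 kb away and Znhit3 41.4 kb away. Their log2 fold changes lay between -0.20 (Znhit3, standard error 0.29) and 0.18 (Usp32, standard error 0.14), with adjusted p between 0.985 and 0.997 from edgeR.

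The remaining family members were near the limit of detection. Car7 (a cytosolic enzyme of brain and muscle, 22 to 42 counts per heart), Car5b (a mitochondrial enzyme, 31 to 69 counts) and Car15 (an anchored surface enzyme, 3 to 22 counts) passed the filter on low counts. Their log2 fold changes were 0.40, 0.26 and -0.03, with adjusted p of 0.985, 0.985 and 0.998 from edgeR. Exons of Gm20518 on the same strand cover 65.7% of the exon bases of Car15, so that its count is uncertain. Car1, Car10, Car5a and Car6 did not pass, and none of them had more than 12 counts in any heart. The receptor tyrosine phosphatases Ptprg and Ptprz1 carry a carbonic anhydrase-like domain outside the cell. Ptprg was at 36.6 to 59.6 CPM, with a log2 difference of 0.16 ± 0.17 (SE). Ptprz1 had 1.70, 1.32 and 1.23 CPM in control hearts 2, 3 and 5 and 2.33, 4.77 and 5.44 CPM in mutant hearts 1, 5 and 10. These groups did not overlap, and the fitted log2 difference was 1.56 ± 0.34 (SE, edgeR adjusted p = 0.363, DESeq2 adjusted p = 0.00255).

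Transporters that work with carbonic anhydrases gave no call with edgeR. Of 17 bicarbonate transporters 14 were tested, with 6 higher and 8 lower in the mutant and a median of -0.07. The lowest p belonged to Slc4a3, the cardiac chloride-bicarbonate exchanger, with a log2 difference of -0.37 ± 0.16 (SE, adjusted p = 0.866), and to the anion exchanger Slc26a1 (-0.68, standard error 0.30, adjusted p = 0.879). For Slc4a3 the values were 69.2, 61.4 and 82.7 CPM in control hearts 2, 3 and 5 and 66.3, 48.2 and 50.4 CPM in mutant hearts 1, 5 and 10, and the groups overlapped. Of 16 proton and lactate transporters 14 were tested (7 higher, 7 lower, median 0.0048). The sodium-proton exchanger Slc9a5 had -0.46 (standard error 0.24) and the lactate exporter Slc16a3 had 0.23 (standard error 0.12). Of 15 aquaporins and Rh channels, which pass water and dissolved gases, 10 were tested (4 higher, 6 lower, median -0.25), and Aqp6 (-1.13, standard error 0.49) and Aqp3 (-0.65, standard error 0.36) had the smallest p. Over these 3 lists, 0 genes had an adjusted p under 0.05 with edgeR or DESeq2. An unadjusted p under 0.05 with edgeR was found in 2, Slc4a3 and Aqp6, beside 5.73% of all genes tested. The FPKM of the groups did not overlap in 2, 1 and 1 tested genes of these lists, beside 10.7% of all genes tested. Slc26a1, Slc16a3 and Aqp6 were among them, while the groups overlapped in Slc9a5 and Aqp3. Leaving out control heart 5 took Slc9a5 to -0.24, leaving out mutant heart 10 took Slc16a3 to 0.12, and Aqp3 was -0.31 without control heart 3 and Aqp6 -0.73 without mutant heart 1.

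**Figure D5:**
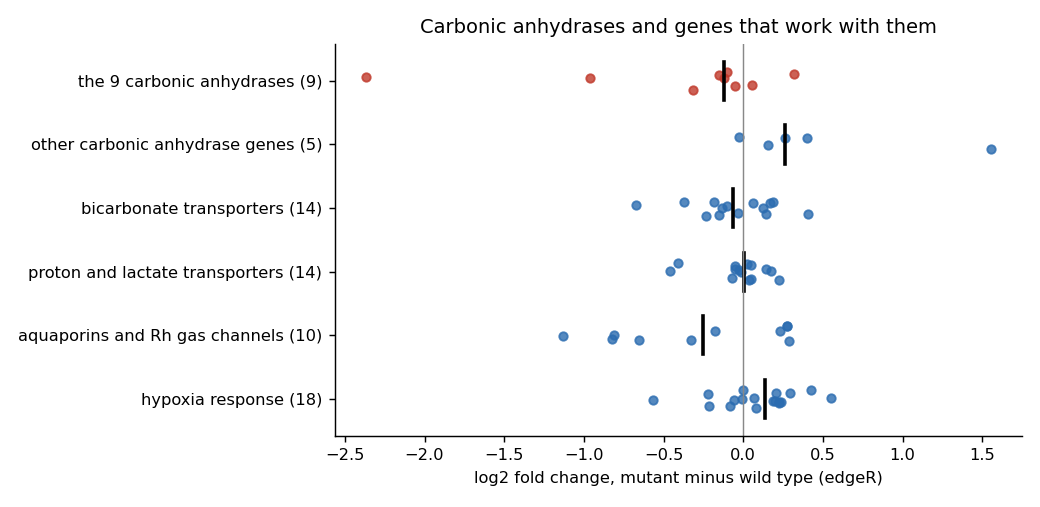
Log2 fold change (horizontal axis, mutant minus wild type) of each tested gene in the 9 carbonic anhydrases (red) and in 5 lists of related genes (blue), with the median of each list as a bar. Car4 at -2.37 and Ptprz1 at 1.56 lie at the ends, and the list medians lie between -0.25 and 0.26.

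Genes of the hypoxia response were measured beside Car9 and Car12, which hypoxia-inducible factor can also induce. All 18 listed genes were tested, with 11 higher and 7 lower in the mutant and a median of 0.13, and 0 had an adjusted p under 0.05 with edgeR or DESeq2. An unadjusted p under 0.05 was found in 3 of the 18, beside 5.73% of all genes tested. Adm, which encodes adrenomedullin, had -0.57 (standard error 0.18, adjusted p = 0.688 from edgeR), whereas Ndrg1 had 0.55 (standard error 0.23, adjusted p = 0.847), or 0.33 without mutant heart 10. P4ha1, a collagen prolyl hydroxylase named after its values were seen, was the third. The summed level of the list was 4481 to 4793 CPM in the control hearts and 4960 to 5770 CPM in the mutant hearts, without overlap. The most abundant genes weigh most in such a sum. Taken singly, 5 of the 18 genes did not overlap between the groups, beside 10.7% of all genes tested.

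Cell types that make carbonic anhydrases or that the study relates to its mutant were measured beside Car4. Of 20 endothelial genes, all of them tested, 13 were higher and 7 lower in the mutant, with a median of 0.20. Their sum was 1403 to 1674 CPM in control and 1526 to 1910 CPM in mutant hearts, with overlap, and the values of single genes ran from -0.71 (Fabp4, a fatty acid binding protein, named after its values were seen) to 0.35 (Flt1, likewise). Emcn (0.25, standard error 0.10, adjusted p = 0.847 from edgeR) and Aplnr (-0.39, standard error 0.16, adjusted p = 0.858) had the smallest p. Of 12 genes of the sinus venosus and sinus node, 10 were lower, with a median of -0.26. Their sum was 379 to 382 CPM in control and 305 to 314 CPM in mutant hearts, without overlap. Taken singly, 5 of these 12 genes did not overlap between the groups, beside 10.7% of all genes tested. Shox2 (-1.02, standard error 0.12) and Vsnl1 (-0.99, standard error 0.17) led this list, with adjusted p of 0.0991 and 0.199 from edgeR. Of 10 atrial genes 8 were lower (median -0.36), led by Kcna5 (-0.73, standard error 0.11) and Nr2f1 (-0.999, standard error 0.25), with sums of 6130 to 7533 CPM in control and 5451 to 6492 CPM in mutant hearts. No gene of these 3 lists was at 0, and 0 passed the edgeR threshold. An unadjusted p under 0.05 was found in 2 of 20 endothelial, 5 of 12 sinus and 6 of 10 atrial genes, beside 5.73% of all genes tested. DESeq2 called 0, 3 and 2 of them, beside 0.66% of all genes. Their part in the level of Car4 was not tested.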

How the data were processed

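RNA of 6 whole hearts was sequenced as pairs of reads. Per the study's methods, reads were trimmed and then aligned by the authors with STAR to GRCm38, and uniquely mapped reads were assigned to genes with featureCounts, while the labels' tool list names HTSeq and DESeq2. The authors deposited a count per gene and heart, without normalization, and FPKM values derived from these counts. The mean FPKM of each group, also deposited, was not used.

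Counts were compared with edgeR 4.0.16 (R 4.3.3) by its quasi-likelihood test, two-sided, with TMM normalization, filterByExpr (10 counts at least, 15 in total), no covariates and a Benjamini-Hochberg adjusted p under 0.05 over all 17473 genes tested. Log2 differences are mutant minus control. CPM use TMM-normalized library sizes. Standard errors are the log2 fold change divided by the square root of F. Profiles of log2 CPM used a prior count of 2. Positions come from GENCODE M21. The fits were tested on simulated data. The alternatives were DESeq2 1.42.0, limma 3.58.1 (voom, and trend fits on log2 of FPKM plus 1 or 0.1), no filter, other size factors, removal of each heart's length trend, and each heart left out. The order of levels with the longest transcript was added after the data were seen.

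The 9 genes and the 17 other lists were chosen with earlier results of these data known. Genes named are the 9, the other carbonic anhydrase genes, the 2 genes with the smallest p of each list without a call, the 8 genes most like Car4 and 3 neighbours on each side. Outside this rule, Slc4a1, Rhag, Hbb-bs, Hba-x, Myh3, Tnnc2, Fabp4, Flt1 and P4ha1 were named with their values known. Groups are separate embryos. The upper limit for a count of 0 covers counting error only.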

Additional observations from a re-analysis of the deposited data

How the results depend on the processing

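With edgeR's quasi-likelihood test 0 genes passed, and this count moved to 132 with DESeq2, 34 without a filter on low counts, 6 with the length trend removed and between 0 and 44 with each heart left out, where 44 came without control heart 5 and every other heart left out gave 0. Of the 9 carbonic anhydrases, 1 (Car4) was called with DESeq2, 1 without the filter and 0 to 1 with each heart left out, again without control heart 5. Of the genes in the other lists, 18 were called with DESeq2, 9 without the filter, 2 with the length trend removed and 0 to 10 with each heart left out. The median log2 fold change of the 9 genes ran from -0.27 to -0.07 over the 14 settings. Car4 kept its direction in all 14, from -2.69 to -1.56, the latter on the log2(FPKM + 1) scale, which understates low genes. The groups did not overlap in Car4, so leaving out a heart could not turn its sign. Car2, Car3, Car8, Car13 and Car14 also kept theirs in all 14, and Car9, Car11 and Car12 in 11. For Car2 the value without mutant heart 5 was only -0.0012. The same check covered the other carbonic anhydrase genes and the genes with the smallest p of each list. With each heart left out, the sign turned for 3 of these. Apoa2 ran from -3.78 to 0.014 (the latter without control heart 3), Car15 from -0.67 to 0.35 and Ptprg from -0.019 to 0.29. The neighbours of Car4, the genes most like it and the genes named outside the rule were not part of this check. The cause was not tested. No paired analysis was possible because the labels used here name no litter or pair, and a shared replicate number does not make one. Depth limits Car12, Car15 and the family members that did not pass the filter.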

Other observations

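Other cell types of the whole heart were measured with the same fit, and 0 of their listed genes had an adjusted p under 0.05 with edgeR. Of 14 macrophage genes 13 were higher in the mutant, and the median difference was 0.69 (log2), and 13 had an unadjusted p under 0.05, beside 5.73% of all genes tested. Their sum was 104 to 126 CPM in control and 168 to 186 CPM in mutant hearts. Msr1, a scavenger receptor, had 1.28 (standard error 0.17) and Vsig4, a complement receptor, had 0.0522 CPM or less in the control hearts and 0.458 to 0.755 CPM in the mutant hearts. DESeq2 called 6 of them, beside 0.66% of all genes. Of 17 epicardial genes 11 were higher and 6 lower (median 0.32), with Tcf21, a factor of fibroblast precursors, at -1.10 (standard error 0.15) and the keratin Krt8 at 1.13 (standard error 0.21). An unadjusted p under 0.05 was found in 7 of the 17 with edgeR, beside 5.73% of all genes tested. DESeq2 called 3 of them, Tcf21 and Krt8 among them, beside 0.66% of all genes. The epicardial sum ranged from 488 to 756 CPM in control and from 511 to 899 CPM in mutant hearts.

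Of 10 ventricular genes 9 were higher (median 0.24), led by the connexin Gja1 (0.68, standard error 0.13) and Irx4 (0.29, standard error 0.09). Of 10 endocardial and cushion genes 8 were higher (median 0.13, or -0.02 without control heart 5), with Nrg1 at 0.60 (standard error 0.21) and Npr3 at 0.33 (standard error 0.16, or 0.19 without control heart 5). Of 13 tested genes of neurons and glia 9 were lower (median -0.19), while Prph, a neuronal filament, had 1.45 (standard error 0.33) and Stmn2 had -0.76 (standard error 0.37, or -0.26 without control heart 5). In the list of lung and foregut epithelium 11 genes were tested, 6 higher and 5 lower, and the median of 0.01 became 1.01 without control heart 5. Cldn3, a claudin, led it at 3.15 (standard error 0.38), followed by Krt7 at 0.95 (standard error 0.30). DESeq2 called 1 gene each in the ventricular (Gja1), neuron and glia (Prph) and foregut (Cldn3) lists, beside 0.66% of all genes. It called 0 in the endocardial and cushion, hepatocyte, skeletal muscle and erythroid lists. All 9 tested hepatocyte genes were lower in the mutant (median -3.24), with Alb at -8.12 (standard error 2.47) and Apoa2 at -3.24 (standard error 1.24). Control heart 3, with 823 CPM of these genes, decided these values: without it Alb was at -3.14 and Apoa2 at 0.01. In skeletal muscle genes the median was -0.77, led by Myog (-2.54, standard error 0.84) and Myod1 (-3.16, standard error 1.07), which were -0.79 and -0.96 without control heart 3. In the erythroid list Hba-a2 had 1.94 (standard error 1.003), a value made uncertain by its near-identical copy Hba-a1, and Klf1 had -1.002 (standard error 0.54). Single hearts decided both: without control heart 3 Hba-a2 was 4.05 and Klf1 -0.21, and without mutant heart 10 Hba-a2 was 0.95.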
